A study of Mus musculus with 162 samples.

Results

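Amino acid transporter genes of the Slc3, Slc7, Slc36 and Slc38 families were followed through short-term fasting (STF) in 9 mouse organs. Members were all rows of the count table whose gene symbol names a numbered gene of these families, which gave 32 of 53686 genes: 2 of Slc3, 15 of Slc7, 4 of Slc36 and 11 of Slc38. The libraries came from 18 adult male C57BL/6J mice, 3 at each of 6 fasting times: fed ad libitum (0 h) or without food for 2, 8, 12, 18 or 22 h. All mice were wild type, carried no transgene and received no agent. They were killed at the same clock time shortly after lights-off, so that food was removed at a different clock time for each group. The fasts of 18 and 22 h included only part of the preceding night, and a longer part at 22 h. Each mouse gave olfactory bulb (OB), telencephalon with diencephalon (BRN), cerebellum (CBL), brainstem (BST), liver (LIV), stomach (STM), brown adipose tissue from between the scapulae (iBAT), and perigonadal and posterior-subcutaneous white adipose tissue (pgWAT and psWAT).

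Amino acids cross membranes on carriers that differ in substrate, in coupling to sodium or protons, and in whether they exchange one amino acid for another. Slc3 proteins are heavy chains that bring the Slc7 light chains to the cell surface, while the cationic Slc7 carriers for arginine and lysine work without a heavy chain. Slc36 carriers mostly use the proton gradient and Slc38 carriers mostly that of sodium. Slc38a1, Slc38a2 and Slc38a4 make up system A for small neutral amino acids, and Slc38a3 and Slc38a5 system N for glutamine and histidine. The liver takes up amino acids for urea and glucose synthesis, and several carriers in lysosomal membranes report amino acid supply to the growth kinase complex mTORC1.

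After 5 shallow libraries were left out (130701 to 4590060 counts), the others held 3045845 to 27801717 counts with a median of 8735554, in 18 libraries per organ but 16 in BRN and 17 in STM, iBAT and psWAT. Levels are counts scaled to a common library total after the library's normalization factor (normalized CPM), and levels of different genes are compared only as CPM per kilobase of exon (CPM per kb). Levels between organs use factors set over the libraries of all organs and values over fasting time use factors set within an organ, so that the CPM of a library differs between these uses. Defining markers of each labelled organ were present: the summed hepatocyte markers lay at 110160 to 140050 CPM in LIV, those of the gastric gland at 13832 to 117850 in STM, and those of brown adipocytes at 6375 to 19896 in iBAT. The adipocyte sum reached 2480 to 26882 CPM in pgWAT but ran from 264 to 16493 in psWAT. Chosen after the data were seen, 4 libraries stood apart by markers of another tissue: those of the epididymis in pgWAT 2 h replicate 2 (2447 CPM in sum), 18 h replicate 3 (7466) and 22 h replicate 2 (17626), and those of cerebellar granule neurons in psWAT 12 h replicate 3 (1975). Results in white fat are given with and without these 4 where they move. Other marker sums were also high and their libraries were kept: skeletal muscle markers reached 13478 CPM in iBAT, 22390 in psWAT and 1061 in LIV, and hepatocyte markers reached 2760 in STM and 3707 in pgWAT 18 h replicate 2. Their part in the levels was not tested. In OB, STM and LIV the 0 and 2 h libraries and the 12, 18 and 22 h libraries lay in different sequencing lanes, bridged only by the 8 h libraries, so that lane and the contrast of late with early fasting cannot be fully told apart there. CBL and BST were each sequenced in 1 lane. In tissue RNA, fewer cells of a type and less RNA per cell cannot be told apart.

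The 32 members differed widely between organs in level. A member was tested in an organ where it passed a filter on low counts, which 29 members did in at least 1 organ and 13 in every organ. Slc7a12, Slc7a13 and Slc36a3 passed it in none, with at most 6, 12 and 8 counts in any retained library. All 29 differed between the 9 organs (edgeR quasi-likelihood test, adjusted p under 0.05), where 99.2% of all genes did, so that this count is close to the background. Without the 4 libraries that stood apart 28 of 29 did, all but Slc7a9 (adjusted p = 0.459), where 99.3% of all genes did. For 19 of the 29 (65.5%), the organ with the highest mean was above the next (adjusted p under 0.05 for that pair), where this held for 65.1% of all genes. Of the pairs of neighbouring organs in the order of a member's levels, 97 differed (41.8%), where 39% of such pairs did over all genes. Both shares are close to the background. The organs come from the same mice, and the tests of pairs of organs, here and below, treat libraries as independent. LIV held the highest mean for 7 members, BST for 5, pgWAT for 4, iBAT for 3, and the other 5 organs for 2 each. Without the 4 libraries the highest organ changed for 2 members, from iBAT to pgWAT for Slc38a10 and from pgWAT to STM for Slc38a5, which left 2 members in iBAT, 4 in pgWAT and 3 in STM.

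**Figure D1:**
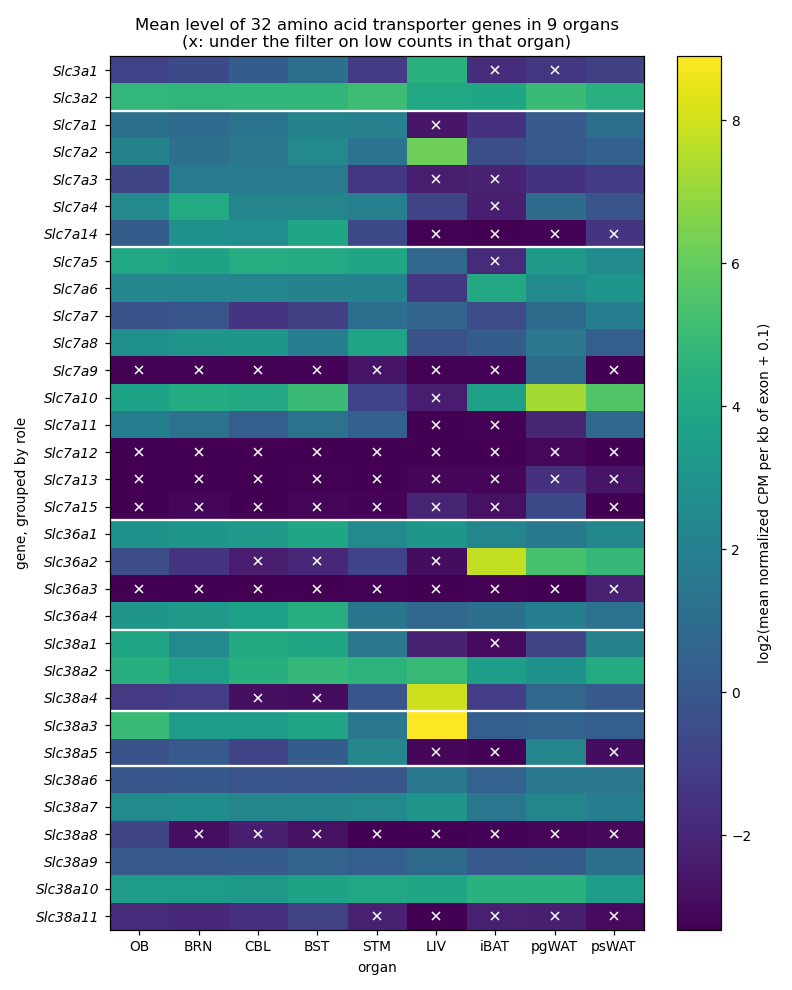
Mean level of each of the 32 members (rows, grouped by role) in each organ (columns), as log2 of mean normalized CPM per kb plus 0.1; crosses mark members under the filter on low counts in that organ. The brightest cells are Slc38a3, Slc38a4 and Slc7a2 in LIV, Slc36a2 in iBAT and Slc7a10 in pgWAT.

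The liver stood apart through 4 members. Slc38a3, the system N carrier for glutamine, reached 476 ± 65.4 CPM per kb in LIV (mean ± SD, n = 18), 15.4 times the next organ, OB at 30.8 ± 2.73. Slc38a4, a system A carrier, reached 250 ± 51.6 in LIV against 1.54 ± 2.23 in pgWAT, where the highest library, 18 h replicate 2 (9.76), is that with hepatocyte markers. Without it the pgWAT mean was 1.06 ± 0.901, and without the 3 libraries with epididymis markers as well 0.802 ± 0.683. Slc7a2, a cationic carrier for arginine and lysine, reached 72.2 ± 38.6 in LIV, 13.6 times the mean in BST. Slc3a1, the heavy chain of the cystine and cationic amino acid carrier of kidney and gut, lay at 21.5 ± 9.19 in LIV against 2.12 ± 0.453 in BST. Adjusted p for the top pair was 1.07e-19, 6.61e-52, 4.08e-26 and 3.20e-37 in that order. Slc38a7, a lysosomal glutamine carrier, was also highest in LIV (8.12 ± 1.20) by a smaller margin over BRN (5.98 ± 1.06). Slc38a2 in LIV (31.4 ± 10.4) and BST (27.96 ± 2.88) were not told apart (adjusted p = 0.18), nor were Slc38a6 in LIV and pgWAT. Slc3a2, the common heavy chain, was low in LIV at 16.2 ± 2.18.

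Slc36a2 was high in all 3 adipose organs and Slc7a10 in the white ones. Slc36a2, a proton-coupled carrier of glycine, alanine and proline and a known surface marker of brown adipocytes, lay at 218 ± 22.7 CPM per kb in iBAT, at 41.01 ± 13.2 in pgWAT and at 28.4 ± 25.96 in psWAT, and at 0.630 ± 0.146 or less elsewhere. Each of the first 3 organs was above the next (adjusted p 4.03e-22, 8.07e-06 and 9.62e-43). Without the 4 libraries that stood apart it lay at 45.1 ± 7.78 in pgWAT (n = 15) and 29.5 ± 26.4 in psWAT (n = 16). The adipocyte marker sum had a median of 20771 CPM in pgWAT and 2352.9 in psWAT. The psWAT libraries with at least 7931.9 CPM of these markers held 178.98 to 254.79 CPM of Slc36a2. Of the pgWAT libraries, 0 h replicate 3 held 217.78 CPM and the others 172.05 or less. Which of these organs is higher at a like adipocyte content was not tested, for Slc36a2 or for Slc7a10. Slc7a10, a light chain for serine, alanine and glycine, lay at 153.99 ± 44.2 in pgWAT and 47.8 ± 42.5 in psWAT, with pgWAT above psWAT (adjusted p 7.69e-18) and psWAT not told apart from BST at 31.8 ± 3.04 (adjusted p = 0.507). Without the 4 libraries it was 169.5 ± 21.6 in pgWAT and 47.4 ± 43.8 in psWAT. In iBAT it lay at 12.3 ± 5.05, which was not told apart from OB (13.5 ± 1.69, adjusted p = 0.469), the organ next above it. Slc7a6, a light chain that exchanges cationic for neutral amino acids, was highest in iBAT at 16.6 ± 3.00 against 8.39 ± 1.502 in psWAT (8.56 ± 1.36 without the library that stood apart). Its relative Slc7a7 was highest in psWAT at 3.70 ± 2.03 (3.88 ± 1.95 without it), where lymphocyte markers ran from 80.9 to 1773 CPM in sum, and whether they bear on it was not tested. Slc38a10 lay at 22.3 ± 5.68 in iBAT and 21.9 ± 3.24 in pgWAT, which were not told apart (adjusted p = 0.815); without the 3 libraries pgWAT was at 22.5 ± 2.42.

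In the nervous system, BST was highest for Slc36a4, a carrier of proline and tryptophan (19.4 ± 0.969 CPM per kb), for Slc36a1, the lysosomal carrier of small neutral amino acids (14.7 ± 1.31), and for Slc7a14, a lysosomal relative of the cationic carriers (14.4 ± 1.04). All 3 were above the next organ (adjusted p 1.04e-10, 7.84e-09 and 5.09e-07). BRN was highest for Slc7a4, whose substrate is not settled (17.5 ± 3.70 against 5.23 ± 0.373 in OB), and OB for Slc7a11, the cystine and glutamate exchanger (3.71 ± 0.699 against 2.34 ± 0.645 in BST), and for Slc38a8 (0.485 ± 0.111 against 0.103 in CBL). Slc38a1, a system A carrier of neurons, lay at 16.9 ± 1.40 in CBL, 15.1 ± 2.14 in OB and 14.8 ± 0.924 in BST, in which neighbours were not told apart. Slc7a5, the light chain for leucine and other large neutral amino acids, ran from 18.9 ± 3.06 in CBL through BST, OB and STM to 13.2 ± 2.31 in BRN, and no neighbouring pair among these 5 organs differed. STM was highest for Slc7a8, the light chain closest in substrates to Slc7a5 (13.8 ± 4.32 against 8.51 ± 1.63 in CBL, adjusted p 2.16e-05), and for Slc3a2 (34.6 ± 4.77), where it was not told apart from pgWAT (adjusted p = 0.323). Hepatocyte markers ran from 640 to 2760 CPM in sum in STM, with a median of 1312, and their part was not tested.

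Some members had similar patterns over the 9 organs. The most similar pairs by Pearson's r of log2 mean level, over 9 organ means that share libraries and given as a description, were Slc7a3 and Slc7a14 (0.960), Slc7a2 and Slc38a3 (0.955), Slc7a2 and Slc3a1 (0.951) and Slc38a1 and Slc7a11 (0.949). The first pair was high in BRN, CBL and BST, and the next 2 pairs in LIV. The libraries that stood apart were kept for these values, and r without them was not computed. Without them the mean of Slc7a14 in psWAT was 0.018 in place of 0.275 CPM per kb, and that of Slc7a11 in pgWAT 0.040 in place of 0.152.

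The share of each light chain that pairs with Slc3a2 also depended on the organ. The summed level of Slc7a5, Slc7a6, Slc7a7, Slc7a8, Slc7a10 and Slc7a11, per kb, was 0.260 ± 0.0667 times that of Slc3a2 in LIV (mean ± SD, n = 18) and 1.04 ± 0.162 times in STM. In OB, BRN, CBL, BST and iBAT the ratio lay between 1.69 and 2.26, in psWAT at 3.29 ± 2.05 and in pgWAT at 5.75 ± 1.75. Slc7a10 made up 87.0% of the light chain sum in pgWAT, 57.1% in psWAT, 52.9% in BST and 38.6% in BRN, where Slc7a5 held 27.5%. Slc7a5 led in OB (34.5%), CBL (37.6%) and STM (39.6%, with Slc7a8 at 37.7%), Slc7a6 in iBAT (55.1%), and Slc7a5 and Slc7a7 held 36.8 and 36.4% in LIV. Without the libraries that stood apart the ratio was 6.33 ± 1.14 in pgWAT and 3.29 ± 2.11 in psWAT, with Slc7a10 at 93.4 and 56.5% of the sum. These are ratios of RNA levels and not of protein.

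Over fasting time, members moved about as often as other genes. The 29 members that passed the filter gave 209 combinations of member and organ. Between late fasting (18 and 22 h) and early fasting (0 and 2 h), 16 combinations were called (edgeR, p adjusted over all genes of an organ, under 0.05), which is 7.66%, where 9.36% of all tests over the 9 organs were called. Of the 16, 2 were higher and 14 lower in late fasting, where 4.59 and 4.77% of all tests were called in those directions, and 3 passed an absolute log2 fold change of 1, as did 2.51% of all tests. Between 8 and 12 h and early fasting 5 were called, 2 higher and 3 lower (2.39%, with 2.12% of all tests), and in the test of any difference between the 6 times 12 (5.74%, with 7.34%). Against 0 h alone, 0 combinations were called at 2 h and 0 at 8 h, where 10 and 24 had an unadjusted p under 0.05, DESeq2 called 1 and 2, and 0.0395 and 0.0874% of all tests were called. At 12, 18 and 22 h 5, 10 and 7 combinations were called, with 1.88, 4.29 and 5.81% of all tests.

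**Figure D2:**
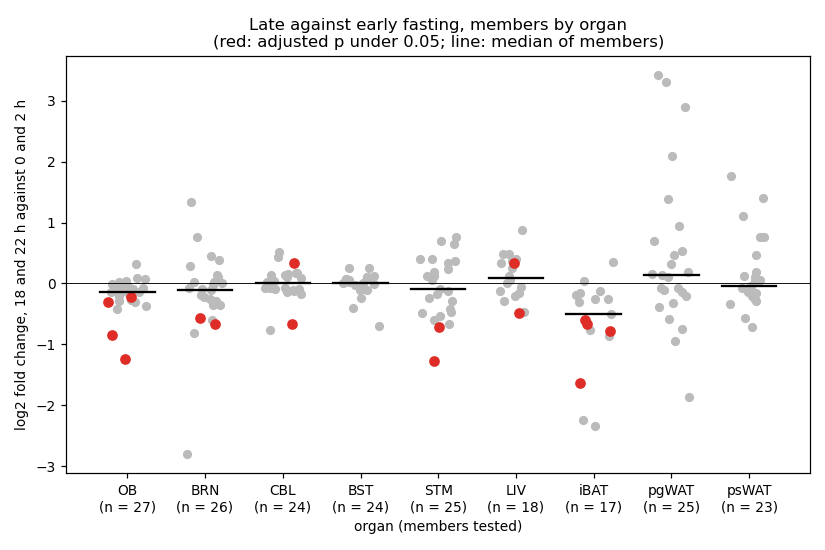
Log2 fold change of late (18 and 22 h) against early (0 and 2 h) fasting for each member tested, 1 point per member, by organ, with the number of members tested under each organ. Red points have an adjusted p under 0.05 and the line is the median of the members; OB and iBAT hold 4 red points each, all below 0, and BST, pgWAT and psWAT hold 0.

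By organ, the late calls were 4 of 27 members in OB (background 4.87%), 2 of 26 in BRN (7.43%), 2 of 24 in CBL (2.48%), 2 of 25 in STM (22.7%), 2 of 18 in LIV (15%) and 4 of 17 in iBAT (36%). In BST (0.0775%), pgWAT (0.00609%) and psWAT (0%) edgeR called 0 members, with 4, 7 and 1 at an unadjusted p under 0.05, and DESeq2 called 0, 2 and 1. The median log2 fold change of the members was -0.14 in OB with -0.0035 over all genes, -0.49 in iBAT with -0.08, and between -0.10 and 0.13 in the other organs.

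Slc38a10 was the member called in most organs. It encodes a carrier of glutamine, glutamate and aspartate that most tissues express. In late fasting it fell by 0.48 ± 0.09 on the log2 scale in LIV (estimate ± SE, adjusted p = 0.00107), by 0.71 ± 0.12 in STM (0.00131) and by 0.60 ± 0.14 in iBAT (0.00383), while in OB, BRN, CBL and BST the estimates lay between -0.08 and 0.13 with none called. A gene annotated as a processed transcript, Gm11769, overlaps Slc38a10 on the opposite strand, and the strand setting of the counting is not given in the sources used here.

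In LIV, Slc38a10 lay at 67.6, 62.1 and 73.4 CPM at 0 h and at 67.7, 74.6 and 68.7 at 2 h. It lay at 52.1, 54.1 and 56.4 at 8 h and at 44.9, 54.8 and 52.5 at 12 h. Late values were 49.2, 45.4 and 49.5 at 18 h and 60.1, 44.03 and 47.7 at 22 h. All 12 libraries from 8 h on were below all 6 of 0 and 2 h, and the fall was present by the intermediate times (log2 fold change -0.40 ± 0.09 for 8 and 12 h against early, adjusted p = 0.00487) with -0.09 ± 0.09 between late and intermediate. Replicates 1 and 2 of 8 h, the libraries from 8 h on that were sequenced in lane 1 with every 0 and 2 h library, lay below each of those. With lane as a term the late estimate was -0.57 (adjusted p = 0.178). Only the 8 h libraries then link the lanes, so that lane and fasting time cannot be fully told apart here. Hepatocyte markers spanned 117390 to 134590 CPM in early and 110160 to 140050 in late libraries.

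In STM, Slc38a10 was lowest at 18 h. It lay at 98.6, 90.6 and 103.1 CPM at 0 h, at 106.8, 103.9 and 108.0 at 2 h, at 100.8, 119.05 and 95.2 at 8 h and at 92.8 and 72.5 at 12 h. At 18 h it was 57.3, 46.1 and 52.1 and at 22 h 65.01, 88.4 and 69.9. All 6 late libraries were below all 6 early ones, as was 1 of the 2 libraries of 12 h, and late against intermediate fasting gave -0.58 ± 0.13 (adjusted p = 0.0283; 0.205 with lane as a term, which ended that call). No lane held both early and late libraries of STM, and with lane as a term the late estimate was -0.50 (adjusted p = 0.9). Gastric gland markers ran from 37375 to 117850 CPM in early and from 13832 to 57767 in late libraries, skeletal muscle markers ran from 286 to 1944 in early and 2120 to 4062 in late ones, and hepatocyte markers from 874.6 to 2647 and from 640 to 1312. Their part in the result was not tested.

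In iBAT Slc38a10 lay at 129.3, 162.4 and 147.02 CPM at 0 h and at 114.3, 102.2 and 84.2 at 2 h, and between 75.8 and 113.1 at 8 and 12 h. Late values were 103.6, 79.6 and 87.6 at 18 h and 66.9 and 73.3 at 22 h. The 0 h mice were highest and the 22 h mice lowest, and the 2 and 18 h values overlapped. Removing a trend with gene length changed the estimate to -0.26 (adjusted p = 0.912), which ended the call. White and brown adipocyte markers also separated the groups, at 9072 to 11488 CPM in early and 13457 to 17043 in late libraries. Skeletal muscle markers ran from 115.7 to 4066 in early and from 371.5 to 2683 in late libraries, and the part of either was not tested. In all 3 organs the call held when any 1 early or late library was left out (highest adjusted p 0.00527 in LIV, 0.00531 in STM and 0.0236 in iBAT). With 22 h alone as the late group it was lost in STM (-0.45, adjusted p = 0.0969), and with 18 h alone in iBAT (-0.42, 0.57). In psWAT the estimate was -0.71 ± 0.17 with an adjusted p of 0.577 in edgeR, and DESeq2 called it (adjusted p = 0.0231).

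**Figure D3:**
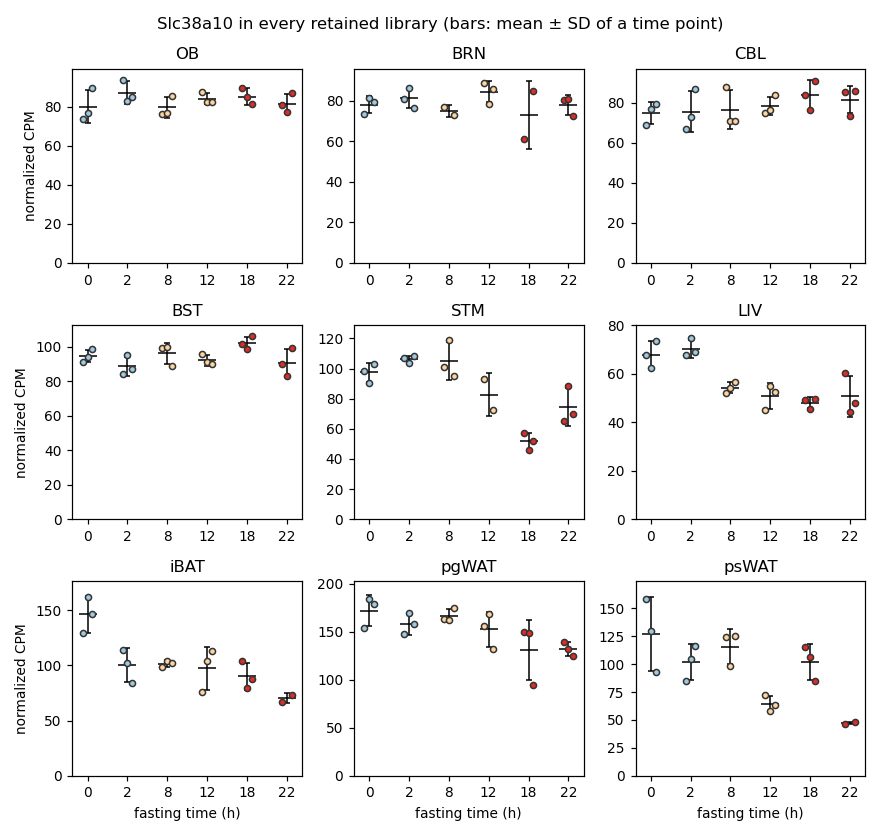
Slc38a10 in every retained library (normalized CPM, axes from 0) by fasting time in hours, 1 panel per organ, with the mean and SD of each time; blue, orange and red points are 0 and 2 h, 8 and 12 h, and 18 and 22 h. In LIV the points from 8 h on lie below those of 0 and 2 h, in STM the points of 18 h are the lowest, and in the 4 nervous system organs early and late points overlap.

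For the members called in late against early fasting in STM, LIV or iBAT, 5 of 6 of which have a promoter window in RefSeq (GRCm38.p6; Slc7a2 has none in the table), the 150 bases before the annotated start are shown 5' to 3' to let a reader see which of the searched motifs they hold, with matches in capitals. Slc7a11, called in OB in late against intermediate fasting, is added because its window holds the ATF4 element. The motifs, on both strands, were TGATGNAA (the composite element bound by ATF4, which drives the response to amino acid lack), TGACGTCA (cyclic AMP response element), CACGTG (E-box), TGTTTAC (forkhead) and ACANNNTGT (glucocorticoid receptor core).
Slc38a10, chr11:120151352-120151501, minus strand: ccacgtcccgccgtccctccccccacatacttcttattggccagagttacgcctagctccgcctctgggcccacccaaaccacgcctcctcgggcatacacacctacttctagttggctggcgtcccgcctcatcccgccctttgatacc
Slc38a2, chr15:96699729-96699878, minus strand: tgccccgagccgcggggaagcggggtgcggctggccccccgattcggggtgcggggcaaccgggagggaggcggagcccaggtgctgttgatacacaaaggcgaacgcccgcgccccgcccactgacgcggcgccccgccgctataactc
Slc36a1, chr11:55204190-55204339, plus strand: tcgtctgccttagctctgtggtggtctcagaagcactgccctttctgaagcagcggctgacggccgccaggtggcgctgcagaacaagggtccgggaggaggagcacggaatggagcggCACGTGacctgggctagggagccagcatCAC
Slc38a5, chrX:8271231-8271380, plus strand: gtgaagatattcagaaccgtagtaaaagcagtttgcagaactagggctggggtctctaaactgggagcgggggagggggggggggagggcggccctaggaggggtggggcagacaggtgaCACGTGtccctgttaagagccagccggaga
Slc38a7, chr8:95853492-95853641, minus strand: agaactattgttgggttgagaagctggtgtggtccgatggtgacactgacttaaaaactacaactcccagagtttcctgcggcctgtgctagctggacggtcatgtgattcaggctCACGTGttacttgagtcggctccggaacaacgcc
Slc7a11, chr3:50443614-50443763, minus strand: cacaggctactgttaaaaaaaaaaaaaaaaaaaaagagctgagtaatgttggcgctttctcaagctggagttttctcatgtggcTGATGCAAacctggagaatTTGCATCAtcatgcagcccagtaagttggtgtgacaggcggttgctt

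The Slc7a11 window holds the ATF4 element on both strands, 66 and 47 bases before the start. Those of Slc38a5 and Slc38a7 hold an E-box 30 and 34 bases before it, and that of Slc36a1 holds an E-box 31 bases before it and a second match that runs past the start. The windows of Slc38a10 and Slc38a2 hold none of the 5 motifs. Over full windows of 300 bases, 23 members had 1 or more in the table, 33 windows in all, and 9 members had none. TGATGNAA stood in windows of Slc7a11 and Slc7a7, where 3.97% of 32851 windows of all genes hold it. TGACGTCA stood in that of Slc38a6 (1.79% of all windows), CACGTG in those of Slc36a1, Slc38a5, Slc38a7 and Slc7a14 (7.15%), TGTTTAC in those of Slc36a3 and Slc7a11 (3.65%) and ACANNNTGT in those of Slc38a11 and Slc3a1 (6.85%). A match describes the letters only.

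Slc7a5 was higher in late than in early fasting in CBL, and both it and its partner Slc3a2 were higher in late than in intermediate fasting in OB. In CBL, Slc7a5 lay at 86.0, 87.2 and 66.6 CPM at 0 h, at 79.2, 82.5 and 86.7 at 2 h, and between 72.1 and 84.6 at 8 and 12 h. It was 108.4, 106.5 and 117.3 at 18 h and 96.0, 92.1 and 94.7 at 22 h. All 6 late libraries were above the other 12, with a log2 fold change of 0.33 ± 0.06 against early (adjusted p = 0.0113) and 0.40 ± 0.07 against intermediate fasting (0.00885), a comparison added after the values were seen. The late call held without any 1 library, with an adjusted p of 0.0423 at most, and all CBL libraries shared a lane.

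In OB Slc7a5 differed over the 6 times (adjusted p = 0.0144). It ran from 58.02 to 92.1 CPM at 0 and 2 h, from 57.5 to 63.5 at 8 and 12 h, was 79.4, 80.7 and 77.7 at 18 h and 66.4, 67.1 and 67.7 at 22 h. Late and early libraries overlapped (-0.03 ± 0.07), and late libraries were all above intermediate ones (0.27 ± 0.07, adjusted p = 0.0091). Slc3a2 in OB followed it, at 102.7 to 129.7 CPM early, 93.2 to 112.2 at 8 and 12 h and 103.7 to 137.1 late (0.27 ± 0.07 late against intermediate, adjusted p = 0.00593), though its groups overlapped. In BST, Slc7a5 was 78.6, 90.3 and 91.1 at 18 h and 79.0, 75.1 and 73.0 at 22 h, against 52.9 to 75.2 at 8 and 12 h, so that the groups overlapped slightly (0.30 ± 0.07, adjusted p = 0.0465). Late against intermediate fasting called 17 combinations, 7 higher and 10 lower: 7 of 27 members in OB (29.3% of all genes), 2 of 24 in CBL (0.795%), 1 of 24 in BST (0.328%), 2 of 25 in STM (3.96%), 1 of 18 in LIV (2.7%) and 4 of 17 in iBAT (23.3%), with 0 in BRN (0%), pgWAT (0.00609%) and psWAT (0%), where 3, 8 and 0 members had an unadjusted p under 0.05 and DESeq2 called 0, 1 and 0.

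**Figure D4:**
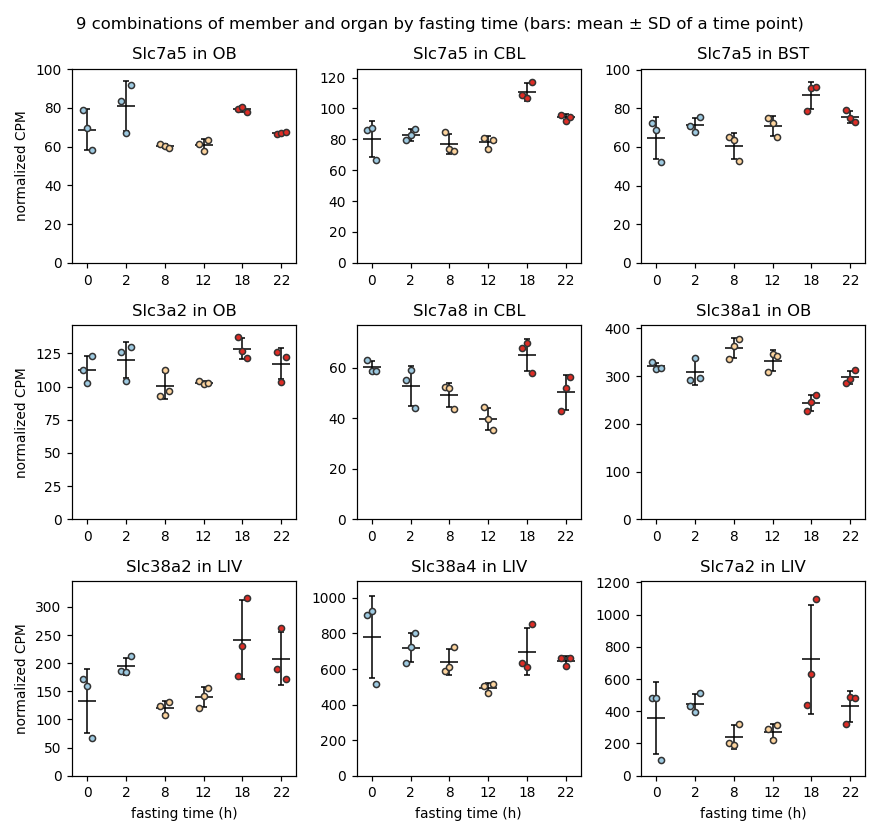
Normalized CPM (axes from 0) of 9 combinations of member and organ in every library by fasting time in hours, with the mean and SD of each time; colours are blue for 0 and 2 h, orange for 8 and 12 h and red for 18 and 22 h. In CBL all 6 red points of Slc7a5 lie above the others, and in LIV all red points of Slc38a2 lie above the orange ones.

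Slc7a8, the related light chain, was lower at 12 h than at 0 and 18 h in CBL: 63.1, 58.9 and 58.8 CPM at 0 h, 44.3, 39.7 and 35.4 at 12 h, 67.7, 69.8 and 57.9 at 18 h and 42.8, 52.0 and 56.4 at 22 h. The lowest 22 h value lay within the 12 h range, and the 2 and 8 h values are not listed here. Late was above intermediate fasting by 0.37 ± 0.08 (adjusted p = 0.0355) and was not called against early (0.02 ± 0.08, adjusted p = 0.91), and the test over all 6 times called it (adjusted p = 0.0174). That test called 3 of 24 members in CBL (2.99% of all genes), the others being Slc7a5 (0.0127) and Slc7a14 (0.0321), which was 83.6 to 91.0 CPM at 8 and 18 h and 63.7 to 82.4 at 12 and 22 h. In BRN, Slc7a8 was 71.5, 60.7 and 66.9 at 0 h and 30.98 to 45.8 in the 5 libraries of 8 and 12 h, the 1 of 26 members called there between intermediate and early fasting (-0.66 ± 0.15, adjusted p = 0.032, background 2.94%), with overlap through 1 library. That call was lost with lane as a term (adjusted p = 0.214), with a term for the number series in the library names (0.327), with the length trend removed (0.0727) and with the shallow libraries put back (0.586). In iBAT Slc7a8 rose from 1.67, 2.30 and 2.54 at 0 h to 5.95, 11.4 and 6.50 at 12 h and lay at 0.319 and 1.45 at 22 h (adjusted p over the 6 times 0.00215). The 12 h values were above all others in iBAT and the 22 h pair below all others. At 22 h, 3 counts come to 0.95 CPM in replicate 2 and 0.34 in replicate 3, so that 0.319 rests on few counts.

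Slc7a11 in OB ran from 57.3 to 89.4 CPM at 0 and 2 h, from 54.6 to 75.9 at 8 and 12 h and from 42.4 to 58.7 in late libraries, which overlapped the earlier ones (-0.32 ± 0.10 late against intermediate, adjusted p = 0.0186; -0.30 ± 0.10 late against early, 0.0791).

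Slc38a1 was lower in late than in early fasting in OB and BRN and Slc38a5 in OB, while the other system A and system N members tested were not called in late against early fasting in the 4 nervous system organs. Slc38a1 in OB lay at 330, 314 and 318 CPM at 0 h and at 291, 339 and 296 at 2 h, between 309 and 377 at 8 and 12 h, and at 226, 246 and 260 at 18 h and 286, 294 and 312 at 22 h. The 18 h libraries were below the other 15. The log2 fold change was -0.22 ± 0.05 late against early (adjusted p = 0.0245), -0.36 ± 0.05 late against intermediate (0.000241) and -0.39 ± 0.07 at 18 h against 0 h (0.00725). In BRN Slc38a1 ran from 102.9 to 165.4 CPM in early and from 63.7 to 120.7 in late libraries (-0.57 ± 0.16, adjusted p = 0.0394), which overlapped. There neuron markers spanned 3168 to 3700 in early and 1594 to 3420 in late libraries, and oligodendrocyte markers 4620 to 10128 and 5139 to 17232. Their part was not tested, and a term for the number series in the library names left no member called in BRN.

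Slc38a5, the system N carrier that endothelium and several other cell types express, was low in OB: 2.11 to 3.09 CPM at 0 and 2 h, 0.759 to 1.99 at 8 and 12 h and 0.572 to 3.27 in late libraries (-0.85 ± 0.24, adjusted p = 0.0482; over the 6 times 0.0176). Early libraries were above all 8 and 12 h ones, and 1 late library was above all early ones. Endothelial markers were 27.4 to 36.6 CPM in sum in early and 16.2 to 25.4 in late OB libraries, without overlap, and their part was not tested. In STM Slc38a5 ran from 7.05 to 17.8 in early and from 0.895 to 10.9 in late libraries (-1.27 ± 0.43, adjusted p = 0.044), with overlap, and the call was lost without any 1 of 10 of the 12 libraries, all but 0 h replicate 2 and 22 h replicate 2 (adjusted p up to 0.104). The estimate then ran from -1.93, without 22 h replicate 2, to -1.03. The gastric gland, muscle and hepatocyte marker ranges given with Slc38a10 apply to STM here too, and their part was not tested. Slc38a11, a member of unsettled function, was near the filter in OB, at 0.777 to 1.92 CPM early and 0.204 to 1.25 late (-1.24 ± 0.33, adjusted p = 0.037). Slc38a3 in OB was 194 to 227 CPM early, 170 to 181 at 8 and 12 h and 173 to 216 late, called only over the 6 times (adjusted p = 0.0417), where 5 of 27 members of OB were called (15.4% of all genes).

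Each late call in OB and BRN was lost without 1 of several libraries, while the estimate kept its direction. With 1 library left out it ran in OB from -0.25 to -0.19 for Slc38a1, from -1.70 to -1.07 for Slc38a11, from -1.09 to -0.65 for Slc38a5 and from -0.36 to -0.24 for Slc7a2, and in BRN from -0.76 to -0.42 for Slc38a1 and from -0.77 to -0.56 for Slc7a14. In OB, Slc38a1 lost its late call without 0 h replicate 1, 2 h replicate 2, 18 h replicate 1 or 22 h replicate 1 (adjusted p up to 0.0899). Slc38a11 lost it without any 1 of 7 of the 12 libraries (up to 0.101), which were replicates 1 and 2 of 0 h, 2 and 3 of 2 h, 1 of 18 h, and 1 and 3 of 22 h. Slc38a5 lost it without replicate 1 of 0 h, 2 or 3 of 2 h, 2 or 3 of 18 h, or 1 or 3 of 22 h (up to 0.125). Slc7a2 lost it without replicate 1 of 0 h, 2 or 3 of 2 h, 1 of 18 h, or 1 or 3 of 22 h (0.0961). In BRN, Slc38a1 lost it without any 1 of 8 of the 11 libraries (up to 0.214), all but 2 h replicate 1, 18 h replicate 3 and 22 h replicate 3. Slc7a14 lost it without replicate 1 of 0 h, 2 or 3 of 2 h, 2 of 18 h, or 1 or 2 of 22 h (0.125). With lane as a term no late call remained in OB or BRN. Of the 7 OB calls of late against intermediate fasting 6 remained, where 4 of the 6 intermediate libraries shared the lane of the late ones. That of Slc7a14 had an adjusted p of 0.0522. Of these 7 members, the 2 higher ones, Slc3a2 and Slc7a5, have 3529 and 3708 bases of exon. The 5 lower ones have 9135 (Slc7a2) to 17236 (Slc38a1). A trend with gene length was removed only in BRN and iBAT, and its part in OB was not tested.

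In LIV, Slc38a2 was higher in late than in intermediate fasting and Slc38a4 lower in intermediate than in early fasting. Slc38a2, the system A carrier whose transcription rises when amino acids are scarce, lay at 172, 160 and 66.8 CPM at 0 h, at 186.98, 184.5 and 212 at 2 h, between 107.95 and 156.1 at 8 and 12 h, and at 177.4, 230.7, 316, 190.5, 262 and 172.02 in late libraries. All late libraries were above all of 8 and 12 h (0.79 ± 0.20, adjusted p = 0.0498) and overlapped the early ones (0.48 ± 0.20, 0.12). Slc38a4 was 517 to 927 at 0 and 2 h, 587, 611 and 723 at 8 h, 504, 465 and 516 at 12 h and 614 to 851 late. The 12 h libraries were the lowest of the 18, and intermediate against early fasting gave -0.41 ± 0.12 (adjusted p = 0.0249). With lane as a term neither was called: the estimate was 0.73 for Slc38a2 (adjusted p = 0.32) and -0.60 for Slc38a4 (0.0843).

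Slc7a2 in LIV was 485, 484 and 97.9 CPM at 0 h, 190 to 323 at 8 and 12 h, 440, 631 and 1097 at 18 h and 319 to 490 at 22 h. Its spread was wide and late against intermediate fasting was not called (1.12 ± 0.35 late against intermediate, adjusted p = 0.0952). For both Slc38a2 and Slc7a2 the lowest early library was 0 h replicate 3. Slc38a3, the most abundant member in LIV per kb, lay (on the scale within the organ) at 1193 to 1843 CPM throughout and was not called (-0.06 ± 0.10, adjusted p = 0.718).

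The lysosomal carrier Slc38a7 was the 1 member higher in LIV in late fasting, at 14.3 to 20.6 CPM early, 20.9 to 25.8 at 8 and 12 h and 18.5 to 27.7 late (0.34 ± 0.11, adjusted p = 0.0443; 0.34 ± 0.11 and 0.0383 for intermediate against early). Intermediate libraries were above all early ones and late ones overlapped them, and the late call was lost without any 1 of 8 of the 12 libraries, all but 0 h replicate 3, 2 h replicate 1, 18 h replicate 3 and 22 h replicate 3 (adjusted p up to 0.132), with estimates of 0.25 to 0.39. Slc38a6 in LIV, a poorly characterised relative, ran from 9.25 to 13.6 early and from 11.9 to 19.6 at 8 and 12 h (0.40 ± 0.13, adjusted p = 0.043). With lane as a term the intermediate calls of both were lost, at 0.28 for Slc38a7 (adjusted p = 0.373) and 0.65 for Slc38a6 (0.0723). The late call of Slc38a7 was lost with lane as a term too. It was also lost with 0 h alone as the early group, and with 18 h or 22 h alone as the late group. Intermediate against early fasting thus called 4 of 18 members in LIV, where 18% of all genes were called, so that the share is close to the background.

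Slc38a6 was also called in other contrasts in CBL and STM. In CBL it was 8.46 to 12.6 CPM early, 5.60 to 12.1 at 8 and 12 h and 4.49 to 8.56 late (-0.67 ± 0.16, adjusted p = 0.0321), with overlap through 1 late library, and lost the call without any 1 of 7 of the 12 libraries (up to 0.0969), replicates 2 and 3 of 0 h, 1 and 2 of 2 h, 3 of 18 h, and 2 and 3 of 22 h, with estimates of -0.73 to -0.57. In STM it was 2.35 to 4.89 at 8 and 12 h and 6.74, 11.0, 11.1, 8.86, 4.78 and 7.03 late (1.23 ± 0.28 late against intermediate, adjusted p = 0.0294). With lane as a term its adjusted p there was 0.177, and the part of the marker ranges of STM was not tested.

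Among the cationic carriers, Slc7a2 in OB was 43.9 to 61 CPM early, 44.6 to 55.9 at 8 and 12 h, 35.1, 35.6 and 36.3 at 18 h and 43.1, 49.5 and 47.7 at 22 h. The 18 h libraries were below the other 15 (-0.30 ± 0.08 late against early, adjusted p = 0.031; -0.55 ± 0.11 at 18 h against 0 h, 0.00775). Slc7a1 in OB, the general cationic carrier, was 28.5 to 34.8 early and 19.7 to 29.7 late (-0.25 ± 0.08 late against intermediate, adjusted p = 0.0275). At 18 h against 0 h 6 of 27 members of OB were called, where 12% of all genes were. Slc7a14 in BRN was 123.6, 96.9 and 97.7 at 0 h, 68.9, 93.4 and 87.4 at 2 h, 56.9 to 74.0 at 8 and 12 h and 47.1 to 80.4 late (-0.66 ± 0.15, adjusted p = 0.0197), with overlap only between 2 h and late libraries.

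In iBAT, 3 members were lower in late fasting beside Slc38a10. Slc36a1, the lysosomal proton-coupled carrier, was 14.4 to 24.7 CPM at 0 and 2 h, 11.8 to 30.7 at 8 and 12 h, 23.8, 13.1 and 17.4 at 18 h and 8.28 and 8.35 at 22 h (-0.77 ± 0.24 late against early, adjusted p = 0.0176). Slc38a2 was 64.3 to 96.2 early, 57.4, 58.5 and 64.8 at 18 h and 22.3 and 54.9 at 22 h (-0.66 ± 0.20, 0.0188). Slc7a2 was 1.90 to 9.90 early, 2.43 to 3.03 at 18 h and 1.78 and 0 counts at 22 h (-1.63 ± 0.57, 0.0338). The 22 h pair was below all other libraries for Slc36a1, and below the 0, 2 and 18 h libraries for Slc38a2. Replicate 2 of 22 h was the shallowest retained library of iBAT (3156101 counts, the next 6980405), and 3 counts come to 0.95 CPM in it. It was also the only retained iBAT library of its lane and of its number series. The part of depth, lane and series in these calls was not tested. Without 22 h replicate 2 the call was lost for Slc36a1 (adjusted p = 0.0571) and Slc38a2 (0.11), and that of Slc7a2 was lost without replicate 2 or 3 of 0 h, 3 of 2 h, 2 or 3 of 18 h, or 2 of 22 h (up to 0.12). With 1 library left out the estimate ran from -0.90 to -0.68 for Slc36a1, from -1.06 to -0.42 for Slc38a2 and from -5.01 to -1.24 for Slc7a2; -1.06 and -5.01 were those without 22 h replicate 3, and -0.42 that without 22 h replicate 2. With 18 h alone as the late group no member of iBAT was called. Removing the trend with gene length also ended these calls, with estimates of -0.46 for Slc36a1 (adjusted p = 0.806), -0.12 for Slc38a2 (0.961) and -0.998 for Slc7a2 (0.506). The adipocyte markers that separated early from late iBAT libraries, given with Slc38a10, apply here too, and their part was not tested.

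Other iBAT members were not called in late against early fasting or were near 0. Slc36a2, its most abundant member per kb, was 412 to 483 CPM at 0 h, 523 to 580 at 2 h and 484 to 541 in late libraries, which lay between them (0.04 ± 0.12, adjusted p = 0.829), and Slc7a6 was 44.4 to 78.5 early and 46.4 to 59 late (-0.25 ± 0.16, 0.211). Slc38a4 was at 3.31 CPM or less in every iBAT library. In late against intermediate fasting iBAT called Slc36a1 (-0.83 ± 0.24, adjusted p = 0.021), Slc38a2 (-0.65 ± 0.20, 0.0302), Slc38a4 (-2.91 ± 0.89, 0.028) and Slc7a8 (-1.51 ± 0.32, 0.0096). With the length trend removed Slc38a4 stayed called (adjusted p = 0.0139), and Slc36a1 (0.319), Slc38a2 (0.578) and Slc7a8 (0.084) did not.

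In the white adipose organs edgeR called no member at any contrast, and the libraries differed widely in adipocyte markers. In psWAT, Slc7a10 ran from 7.73 to 299 CPM and Slc36a2 from 8.03 to 255 over 17 libraries. Both followed the summed level of Adipoq, Plin1, Cidec and Lpl on the log2 scale. For Slc7a10 Pearson's r was 0.966 and Spearman's rho 0.958, and for Slc36a2 0.969 and 0.953 (permutation test, p 1e-05 each, the smallest that 100000 permutations can give, and 2e-05 adjusted over 4 relations). Without the 2 libraries farthest from the median r was 0.950 and 0.969. Within lane 5 (10 libraries) r was 0.961 and 0.952, within lane 7 (6 libraries) 0.938 and 0.965, and lane 4 held 1 library. In lane 7 rho was lower, at 0.829 and 0.543, and r without the 2 farthest libraries was 0.526 and 0.728, so that the relation is less certain there.

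In pgWAT, r was 0.967 for Slc7a10 and 0.937 for Slc36a2 over 18 libraries (permutation p adjusted over the 4 relations 9.33e-05 and 0.00116), and rho 0.571 and 0.375. Without the 3 libraries with epididymis markers r was 0.327 and 0.0255, so that the relation rests on those libraries. Without the 2 farthest libraries it was 0.585 and 0.146, and lane 6 (0.984 and 0.984) and lane 5 (0.941 and 0.464) each hold at least 1 of the 3.

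**Figure D5:**
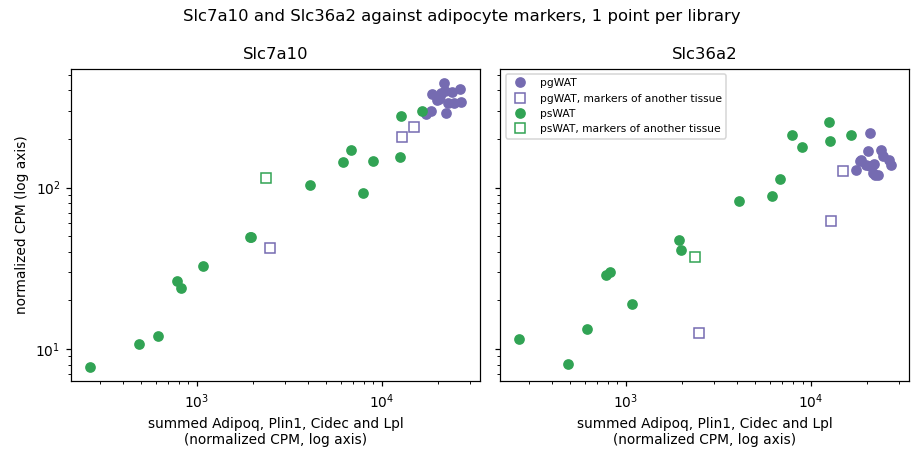
Slc7a10 (left) and Slc36a2 (right) against the summed level of 4 adipocyte markers, both in normalized CPM on log axes, 1 point per library of pgWAT (purple) and psWAT (green). Open squares are the 4 libraries that stood apart by epididymis or cerebellar granule neuron markers. In both panels psWAT spreads along a line from 264 to 16493 CPM of markers, and most pgWAT libraries cluster at 17400 to 26882 CPM. For Slc7a10 this cluster lies near the upper end of the psWAT line. For Slc36a2 all pgWAT libraries but 0 h replicate 3 lie below the psWAT libraries with at least 7931.9 CPM of markers.

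The libraries with epididymis markers also stood apart for some members in pgWAT. Slc7a5 was 479 CPM in 18 h replicate 3 and 102.8 in 22 h replicate 2, and 2.41 to 16.2 in the other 16 libraries. Slc38a5 was 165.4 and 13.2 in the same 2 libraries. Without the 3 libraries the mean of Slc38a5 was 0.662 ± 0.515 in place of 4.67 CPM per kb, and that of Slc7a10 was higher, as given above. DESeq2 called Slc7a5 (log2 fold change 3.42, adjusted p = 0.0184) and Slc36a1 (-0.95, 0.0162) in late against early fasting there, and without the 3 libraries edgeR called 0 members.

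Slc7a9, the light chain that pairs with Slc3a1, was detected above the filter only in pgWAT and there library by library. It lay at 18.6, 9.42 and 0 CPM at 0 h, at 1.54, 11.5 and 6.36 at 2 h, at 1.85, 1.08 and 0 at 8 h and at 0, 13.3 and 12.7 at 12 h, then at 0, 0.163 and 1.76 at 18 h and 0.634, 12.9 and 6.93 at 22 h. Libraries with at least 6 CPM occurred at 0, 2, 12 and 22 h, with lower ones at the same times, and none at 8 or 18 h. The 8 libraries with at least 6 CPM of Slc7a9 were also those with the highest Slc7a15, a light chain for aromatic amino acids, at 1.11 to 18.2 CPM against 0.160 or less in the other 10. Of the 8, 2 h replicate 2 and 22 h replicate 2 hold epididymis markers, and the other 6 had 1.11 to 3.29 CPM of Slc7a15. Without the 3 libraries with these markers the mean of Slc7a15 was 0.278 in place of 0.565 CPM per kb, and that of Slc7a9 1.68 ± 2.099 (n = 15).

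The late effect itself differed between organs for 12 of 29 members (edgeR test of the late minus early contrast over 9 organs), where 35.6% of all genes were called, so that the share of members is close to the background. The 9 organs come from the same 18 mice and the test treats libraries as independent. With the animal as a replicate block, added after seeing the data, 11 were called (35.3% of all genes), and Slc7a6 (adjusted p = 0.0515) was the 1 of the 12 that lost the call. Slc38a10 had the smallest adjusted p (2.18e-08), followed by Slc7a5 (6.95e-06), Slc7a11 (4.94e-05), Slc38a5 (0.000227), Slc38a9 (0.000386), Slc38a6 (0.00363), Slc7a4 (0.00564), Slc38a2 (0.0064), Slc36a1 (0.0143), Slc7a1 (0.0198), Slc7a2 (0.0351) and Slc7a6 (0.0352). Slc38a9 is the lysosomal arginine sensor of mTORC1 and was called in no organ by itself. Without the 4 libraries that stood apart, 8 members were called (40.3% of all genes) and 6 of these 12 lost the call, among them Slc7a5 (0.516), Slc7a11 (0.638) and Slc38a5 (0.221). Slc38a10 (7.62e-09), Slc38a9 (0.000172), Slc38a6 (0.00243), Slc38a2 (0.00319), Slc7a2 (0.0192) and Slc7a4 (0.0296) kept it. Without psWAT and pgWAT altogether 5 of the 12 lost the call, Slc36a1 (0.0622), Slc7a4 (0.176), Slc7a5 (0.0951), Slc7a6 (0.0692) and Slc7a11 (0.417), and with the 5 shallow libraries put back Slc38a2 (0.231) and Slc7a6 (0.13) did.

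Other genes of amino acid handling were counted by lists. Of amino acid transporters of other families, 6 of 12 tested were called in iBAT in late against early fasting (1 higher, 5 lower), 2 of 13 in STM, and at most 1 in any other organ. Targets of ATF4, a regulator of amino acid and stress genes, were called in 4 of 20 in LIV (all 4 higher, median log2 fold change 0.31 with 0.01 over all genes), in 5 of 21 in STM (4 higher, and Asns, asparagine synthetase, lower) and in 8 of 20 in iBAT (6 higher, median 0.40 with -0.08). In LIV the 4 were Cars, Chac1, Eif4ebp1 and Trib3. Of these targets 2 of 21 were higher in OB and 2 of 20 in BRN, and in CBL 1 of 21 was higher and 1 lower. Of amino acid sensing and mTORC1 genes, 7 of 31 were called in LIV (4 higher, 3 lower) and 14 of 32 in iBAT (7 higher, 7 lower). Of the 32 tested, 4 were higher and 2 lower in STM, and 2 higher and 1 lower in BRN. Of amino acid catabolism and urea cycle genes, 5 of 25 were called in LIV (1 higher, 4 lower), 4 of 19 in STM (all lower, median -0.48) and 5 of 13 in iBAT (4 higher). In OB 1 of 15 was lower, in BRN 2 of 16 were higher and 1 lower, and in CBL 1 of 17 was lower. The background share of called genes was 15% in LIV, 22.7% in STM, 36% in iBAT, 4.87% in OB, 7.43% in BRN and 2.48% in CBL, as above. These counts come from the main fit. The trend with gene length, whose removal ended the late calls of members in iBAT, was not removed for the lists.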

How the data were processed

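The authors prepared stranded mRNA libraries, aligned read pairs to GRCm38.p5 with TopHat2 2.1.1, counted uniquely mapped reads over Gencode genes with HTSeq 0.9.1, and deposited raw counts without normalization; the strand setting is not given in the sources used here. The 5 libraries that the study lists as excluded were left out. Members and lists were chosen with earlier results of these data known. A gene entered an organ's fit if at least 3 of its libraries reached the CPM that 10 counts give at the median library size. Each organ was fitted with edgeR 4.0.16 (TMM factors, robust quasi-likelihood test, R 4.3.3) on 6 time groups, with Benjamini-Hochberg adjustment over all kept genes and calls at 0.05; organs were compared in 1 fit of all libraries. P-values measure the spread between mice. Alternatives were DESeq2 1.42.0, other factors, no filter, the 5 shallow libraries put back, lane, library number series, a length trend, replicate blocks and left-out libraries; late against intermediate fasting, single late times, library number series and the 4 libraries that stood apart and the animal as a block of the test between organs were added after seeing the data. Values were named for members called in late against early fasting or over all times, and for role groups; other named values were chosen after they were seen. Lengths and gene overlaps come from Gencode M21. Slc3a1, Slc7a2, Slc7a4, Slc7a7, Slc7a10, Slc38a9 and Slc38a10 overlap a gene on the opposite strand. No 2 libraries agreed within sampling noise (chi-square over df 1.84 or more). The fits were checked on simulated data, where the test between organs called a larger share of unchanged genes than the fits within an organ, and the test of a late effect that differs between organs missed more of the changed ones at the same fold size.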

Additional observations from a re-analysis of the deposited data

Results flagged for a closer look

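Over 90 groups of early, intermediate or late libraries (30 combinations of member and organ), 10 held a library far from the others of its group by Dixon's criterion, where chance gives about 1 in 20. In OB, Slc7a1 lay at 19.7 CPM in 18 h replicate 1, with the nearest late library at 26.8, and Slc7a11 at 89.4 in 0 h replicate 1, with the nearest early one at 64.8. In CBL, Slc38a6 lay at 12.6 in 2 h replicate 1 (nearest 9.16), and in BST Slc7a5 at 52.2 in 0 h replicate 3 (nearest 67.5). In LIV, Slc38a10 lay at 60.1 in 22 h replicate 1 (nearest 49.5), Slc38a7 at 25.8 in 12 h replicate 2 (nearest 22.5), Slc38a4 at 851 in 18 h replicate 3 (nearest 663) and Slc38a2 at 66.8 in 0 h replicate 3 (nearest 160). In iBAT, Slc38a2 lay at 22.3 in 22 h replicate 2 (nearest 54.9) and Slc7a8 at 11.4 in 12 h replicate 2 (nearest 6.50).

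The late effect differed between organs (edgeR, adjusted p) for Slc38a10 (2.18e-08), Slc7a5 (6.95e-06), Slc7a11 (4.94e-05), Slc38a5 (0.000227), Slc38a9 (0.000386), Slc38a6 (0.00363), Slc7a4 (0.00564), Slc38a2 (0.0064), Slc36a1 (0.0143), Slc7a1 (0.0198), Slc7a2 (0.0351) and Slc7a6 (0.0352), with the backgrounds and exceptions given in the report.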

How the results depend on the processing

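Of the 16 late calls, all 16 kept direction and call with DESeq2's size factors in edgeR, 15 with DESeq2, 15 with the replicate block and 13 without a filter; no result reversed. The lane effect could be fitted for 10 of the 16, in OB, BRN, STM and LIV, and 0 of them were then called, nor any in the white fats; lane could not be fitted with time in iBAT and was constant in CBL and BST. Late members called changed as follows. The share of all genes is not given beside these counts, so that they describe the calls of members and do not compare members with other genes. Without a filter they were 1 in BST, 1 in STM and 4 in LIV, and with the 5 shallow libraries put back 0 in BRN and 1 in STM. A length trend was removed in BRN and iBAT only, where they were then 1 and 0. With a term for the number series in the library names they were 0 in BRN, and with DESeq2 2 in pgWAT and 1 in psWAT. With 0 h alone as early they were 2 in OB, 3 in BRN, 1 in CBL, 1 in STM, 1 in LIV and 1 in iBAT. With 18 h alone as late they were 7 in OB, 4 in STM, 1 in CBL, 1 in LIV and 0 in BRN and iBAT, and with 22 h alone 7 in iBAT, 3 in CBL, 1 in LIV and 0 in OB, BRN and STM. With an absolute log2 fold change over 1 they were 1 in OB, STM and iBAT and 0 in BRN, CBL and LIV. Leaving out 1 library gave 0 to 6 in OB, 0 to 8 in BRN, 1 to 3 in CBL, 1 to 4 in STM, 1 to 2 in LIV and 1 to 6 in iBAT.

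The counts over all organs that follow stand without the share of all genes in the same setting, so that members are not compared with other genes. DESeq2 called 25 combinations in late, 12 in intermediate against early fasting, 38 over the 6 times and 45 against 0 h. Without a filter these were 13 for intermediate, 34 over the 6 times and 45 against 0 h. With lane as a term they were 0 for late, 0 for intermediate and 2 over the 6 times. Replicate numbers mark different mice within an organ: deviations of same-numbered libraries correlated on average between -0.079 (psWAT) and 0.162 (iBAT), and 2 (LIV, psWAT) to 10 (iBAT) libraries lay closest to their own number. The replicate block gave 1 late call in LIV and 19 calls over the 6 times in place of 12. Members below about 1 CPM, such as Slc38a11 in OB, rest on few counts, since a library's 3 counts come to between 0.108 and 0.985 CPM.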
